A study of Mus musculus with 25 samples.

Results

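Protocadherins and cadherins are calcium-dependent adhesion proteins that join the membranes of neighbouring cells, and this account follows their transcripts in the CA1 region of the hippocampus of adult female Balb c/J mice. Members were the probe sets that the array annotation names for 1 gene alone with a symbol starting with Pcdh, or with Cdh followed by a digit, and Cdh5, the endothelial cadherin, was left out. The rule found 99 probe sets of 45101, which stand for 55 genes of the 18193 genes with a probe set of their own. Each gene is represented by its leading probe set, the one with the highest mean log2 signal over the 25 mice.

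The mice were an inbred strain with no transgene or deletion named in the labels, and both groups were female. Behavioural testing in the open field and the light-dark box began at 8 weeks of age, and tissue was taken 2 weeks after testing. Handled mice (n = 11) had been taken from their mothers for 15 minutes each morning from postnatal day 1 to postnatal day 14, and non-handled mice (n = 14) had been left with theirs. RNA was extracted with RNA/DNA columns from 7 handled and 10 non-handled mice, called column mice here, and with Trizol from 4 handled and 4 non-handled mice, called Trizol mice. Each mouse gave 1 Affymetrix Mouse 430_2.0 array after amplification of the RNA through a pair of rounds. Litters were the unit of handling, with 5 in the handled and 6 in the non-handled group, and since the litter of each mouse is not given, all p-values, the permutation among them, treat littermates as independent and may be too small. In tissue RNA, fewer cells of a type cannot be told apart from less RNA per cell.

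Classical cadherins bind the same cadherin on the opposite membrane and are anchored to actin through catenins. They hold synaptic contacts together, and the type II members differ in their expression between hippocampal fields and their inputs. Clustered protocadherins lie in tandem arrays of alpha, beta and gamma genes, and each neuron expresses its own combination, which serves in recognition of self. The delta protocadherins are single genes, several of which act in axon growth, synapse removal and actin remodelling.

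The 55 genes fell into 4 classes. The 23 clustered protocadherins were 22 beta genes and the gamma gene Pcdhgc4, all on chromosome 18. The 12 other protocadherins held 4 delta1 genes (Pcdh1, Pcdh7, Pcdh9 and Pcdh11x), 5 delta2 genes (Pcdh8, Pcdh10, Pcdh17, Pcdh18 and Pcdh19) and Pcdh12, Pcdh15 and Pcdh20. The 15 classical cadherins were 5 of type I (Cdh1, Cdh2, Cdh3, Cdh4 and Cdh15) and 10 of type II (Cdh6, Cdh7, Cdh8, Cdh9, Cdh10, Cdh11, Cdh18, Cdh19, Cdh20 and Cdh22). The 5 other cadherins were Cdh13, Cdh16, Cdh17, Cdh23 and Cdh26. The alpha genes share probe sets that name several genes at once, so none of them is a member.

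Since all mice were female, 9 probe sets of Y-linked genes served as a gauge of background, with a median of 3.88 and a highest value of 5.24 in mean log2 signal. Of the 55 members, 45 lay above the highest of these, among them 13 of 15 classical cadherins, 17 of 23 clustered protocadherins, 11 of 12 other protocadherins and 4 of 5 other cadherins. Pcdhb18 and Pcdhgc4, which are described below, lay within the range of the gauge. The spread between mice of the same group had a median SD of 0.31 in log2 signal among the 35 members in the upper 50% of signal over all probe sets, and of 1.19 among the 20 members in the lower 50%. The same medians over all leading probe sets were 0.28 and 1.09.

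Facts of the whole series that touch these values are few. Of the 7 CA1 pyramidal marker genes measured, all lay above the gauge. So did all 5 dentate granule and all 7 CA3 and CA2 genes, so this does not set CA1 apart from other fields. The median signal of an array was 79.6 to 95.9 in handled column mice and 94.7 to 135.2 in non-handled column mice, and the median handling difference of all probe sets was -0.15 on the log2 scale. Scaling every array to the same mean and variance moved that median to 0.03, so handling differences are to be read against it. Among leading probe sets of all genes, the median handling difference was -0.02 in the upper 50% of signal and -0.49 in the lower 50%. The array of non-handled mouse NH162 had a 3′ to 5′ log2 ratio of Actb, a measure of RNA integrity, of 3.24, against 1.54 to 2.12 on the other 24 arrays, and it was the lowest of the 10 non-handled column mice in 19 of the 55 members. Without it 9 members were called for handling in place of 10.

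Handling was compared in 1 limma fit with handling and extraction as terms, and a member was called where its p, adjusted by Benjamini-Hochberg over 45037 probe sets, lay under 0.05. Handling called 10 of the 55 members, 7 higher and 3 lower in handled mice. Over the leading probe sets of all genes, 14.2% were called, 4.47% higher and 9.7% lower. The members that rose were the classical cadherins Cdh2, Cdh8 and Cdh10, the delta1 protocadherins Pcdh7 and Pcdh11x and the clustered genes Pcdhb16 and Pcdhb20, each by 1.22-fold to 1.60-fold. The members that fell were the delta1 gene Pcdh1, the clustered gene Pcdhb18 and Cdh26. Of the 55 members, 16 had an unadjusted p under 0.05, and over all leading probe sets 31.6% did.

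All 7 members that rose were among the 35 in the upper 50% of signal, where 7.03% of all leading probe sets rose and 10.3% fell. In that same range 1 member, Pcdh1, fell, and its mean log2 signal of 6.61 lay just above the cut at 6.58. Among the 20 members in the lower 50%, none rose and 2 fell, against 0.0749% and 8.6% of all leading probe sets there. The median difference was 0.18 over the members in the upper 50% and -0.24 over those in the lower 50%, each above the median of all leading probe sets in its range. No test of the list as a whole was made, and the members were chosen with earlier results of these data known.

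**Figure D1:**
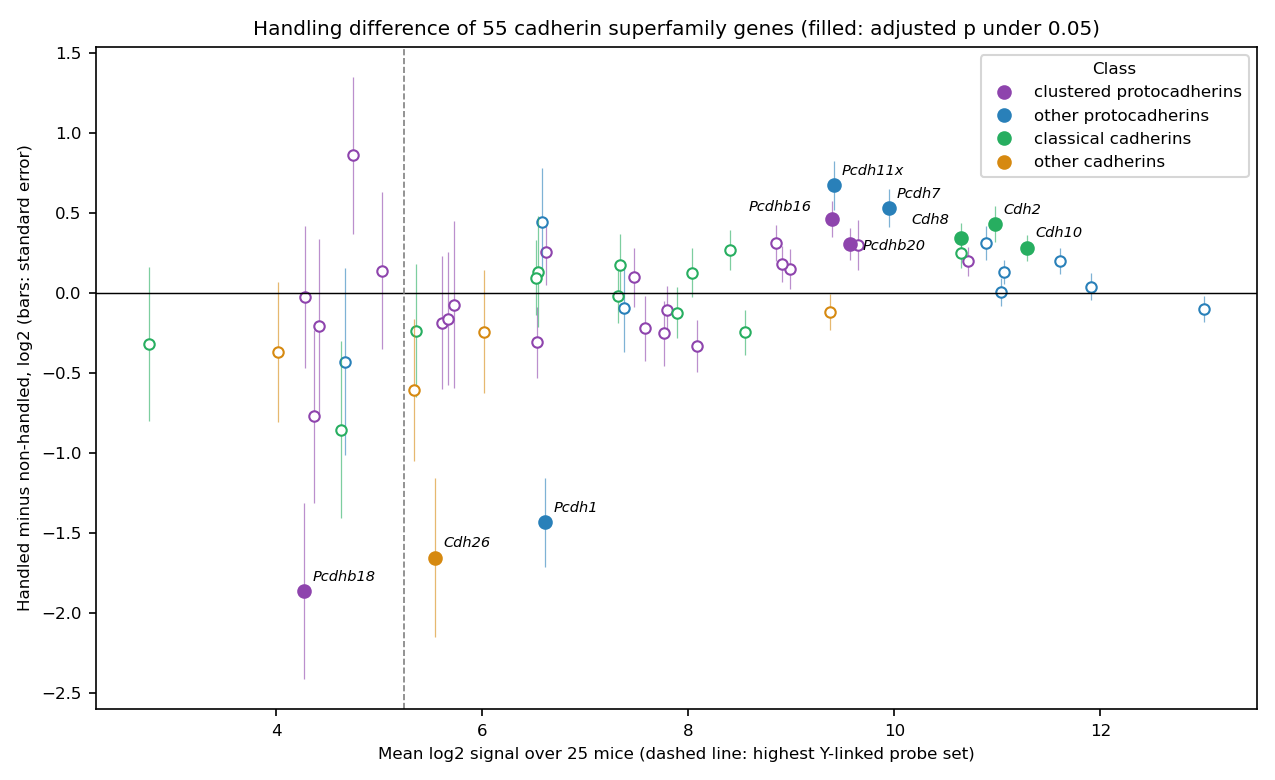
Handling difference (handled minus non-handled, log2, with its standard error) of each of the 55 members against its mean log2 signal over 25 mice, coloured by class, with filled points for adjusted p under 0.05 and a dashed line at 5.24, the highest Y-linked probe set. The 7 called members above 0 all lie at bright signal, and Pcdhb18 is the called member left of the dashed line.

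Pcdh1, a delta1 protocadherin, had the smallest p of the family. Its log2 signal was 4.19 to 6.69 with a median of 5.70 in the 7 handled column mice, and 6.77 to 8.03 with a median of 7.46 in the 10 non-handled column mice. Every handled column mouse thus lay below every non-handled column mouse. In Trizol mice it was 5.15, 5.90, 5.95 and 7.02 with handling and 5.60, 6.99, 7.23 and 7.52 without, and these groups overlapped. The lowest handled values, 4.19 in column and 5.15 in Trizol mice, lay under the highest Y-linked probe set, at 5.24. Its mean signal of 6.61 lay close to the lower 50%, where the median handling difference of all leading probe sets was -0.49. The handling difference was -1.43 ± 0.28 (SE, n = 11 and 14, limma adjusted p = 0.00108), or -1.73 in column mice and -0.83 in Trizol mice. A two-sided exact permutation of handling within extraction method, over 1361360 reassignments, gave p = 5.95e-05.

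Pcdh7, also of the delta1 group and known as BH-protocadherin, rose. Its log2 signal was 9.82 to 10.66 (median 10.25) in handled and 8.82 to 9.81 (median 9.57) in non-handled column mice. These groups did not overlap, although their nearest mice differed by little. In Trizol mice it was 10.13, 10.29, 10.39 and 10.59 with handling and 9.74, 9.87, 10.24 and 10.64 without. All 4 handled Trizol mice lay above the median of the non-handled ones, but inside their range. The difference was 0.53 ± 0.12 (SE, limma adjusted p = 0.00414), or 0.68 ± 0.13 in column and 0.23 ± 0.19 in Trizol mice.

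Pcdh11x, the X-linked delta1 gene, had the largest rise among called members. Its log2 signal was 9.62 to 10.41 (median 9.87) in handled and 8.34 to 9.60 (median 9.09) in non-handled column mice, again without overlap. In Trizol mice it was 8.95, 9.57, 9.82 and 10.05 with handling and 8.53, 9.19, 9.80 and 9.83 without, and the groups overlapped over most of their range. The difference was 0.68 ± 0.15 (SE, limma adjusted p = 0.00505), or 0.88 ± 0.15 in column and 0.26 ± 0.28 in Trizol mice. The fourth delta1 gene, Pcdh9, was bright in all mice (11.04 to 12.80) and its leading probe set was not called, with an adjusted p of 0.791.

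Cdh2, or N-cadherin, the main cadherin of excitatory synapses, was 11.25 to 11.75 (median 11.41) in handled and 10.18 to 11.17 (median 10.88) in non-handled column mice. All 7 handled column mice lay above all 10 non-handled ones. In Trizol mice it was 10.48, 10.66, 10.96 and 11.12 with handling and 10.56, 10.57, 11.04 and 11.07 without, so that handled and non-handled mice were interleaved. The difference was 0.43 ± 0.11 (SE, limma adjusted p = 0.0126) in all mice, 0.64 ± 0.12 in column mice and -0.0025 ± 0.17 in Trizol mice. The rise of Cdh2 was thus seen in column mice, and the handling by extraction term that tests this had an unadjusted p of 0.00534 and an adjusted p of 0.502.

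Cdh8 and Cdh10 are type II cadherins of neurons. Cdh8 was 10.34 to 11.19 (median 10.65) in handled and 9.88 to 10.55 (median 10.31) in non-handled column mice. In Trizol mice Cdh8 was 10.81, 11.24, 11.29 and 11.40 with handling and 10.82, 10.93, 11.04 and 11.16 without. Handled mice were the higher ones in both extractions, with overlap in both, and the difference was 0.34 ± 0.10 (SE, limma adjusted p = 0.0219). Cdh10 was 11.07 to 11.60 (median 11.47) in handled and 10.96 to 11.41 (median 11.06) in non-handled column mice. In Trizol mice Cdh10 was 11.23, 11.29, 11.71 and 11.89 with handling and 11.14, 11.20, 11.25 and 11.48 without. Its difference was 0.28 ± 0.08 (SE, limma adjusted p = 0.0221), and it was of like size in column (0.29) and Trizol mice (0.26). The call of Cdh10 was lost when arrays were scaled to the same mean and variance (adjusted p = 0.104), and the call of Cdh8 was lost without handled mouse H109 or H116 and with RNA quality covariates (0.21, adjusted p = 0.149). Over the mean of its probe sets, Cdh8 had a difference of 0.19 and was not called either (adjusted p = 0.373).

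Among the 23 clustered protocadherins, Pcdhb16 was 9.03 to 9.73 (median 9.26) in handled and 8.17 to 9.27 (median 8.87) in non-handled column mice. In Trizol mice, where its signal was higher throughout, it was 10.05, 10.32, 10.33 and 10.97 with handling and 9.80, 9.86, 10.03 and 10.18 without. The handled groups were the higher in both extractions and by the same amount, 0.47 ± 0.14 and 0.45 ± 0.18, and the pooled difference was 0.46 ± 0.11 (SE, limma adjusted p = 0.00740). That call was lost without the extraction term (adjusted p = 0.160) and over the mean of its probe sets (0.35, adjusted p = 0.219). Pcdhb20 was 9.44 to 9.98 (median 9.69) in handled and 8.90 to 9.69 (median 9.40) in non-handled column mice, and its difference was 0.31 ± 0.10 (limma adjusted p = 0.0383). That call was lost in 10 of the 25 fits that left out 1 mouse. Pcdhb18 was 1.71 to 5.96 (median 2.67) in handled and 1.89 to 6.75 (median 5.01) in non-handled column mice, mostly within the range of the Y-linked gauge. Its difference was -1.86 ± 0.55 (SE, limma adjusted p = 0.0255), and the call was lost without handled mouse H108 or H109 and when arrays were scaled to the same mean and variance (adjusted p = 0.0808). The beta genes are paralogs with near-identical stretches, so a probe set named for 1 of them may take signal from another, which could not be checked since probe sequences were not used here.

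Cdh26, a cadherin known from epithelium, was 2.59 to 6.35 (median 4.49) in handled and 4.16 to 7.29 (median 6.47) in non-handled column mice, with overlap. Its handled median lay under the highest Y-linked probe set, at 5.24. Its difference was -1.65 ± 0.50 (SE, limma adjusted p = 0.0286), and it was -1.72 in column and -1.52 in Trizol mice. The call was lost in 4 of the 25 fits that left out 1 mouse, each of them without a handled mouse, and after scaling to the same mean and variance (adjusted p = 0.0835). All 5 other cadherins had a difference below 0, the remaining ones between -0.60 and -0.12 and none of them called.

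**Figure D2:**
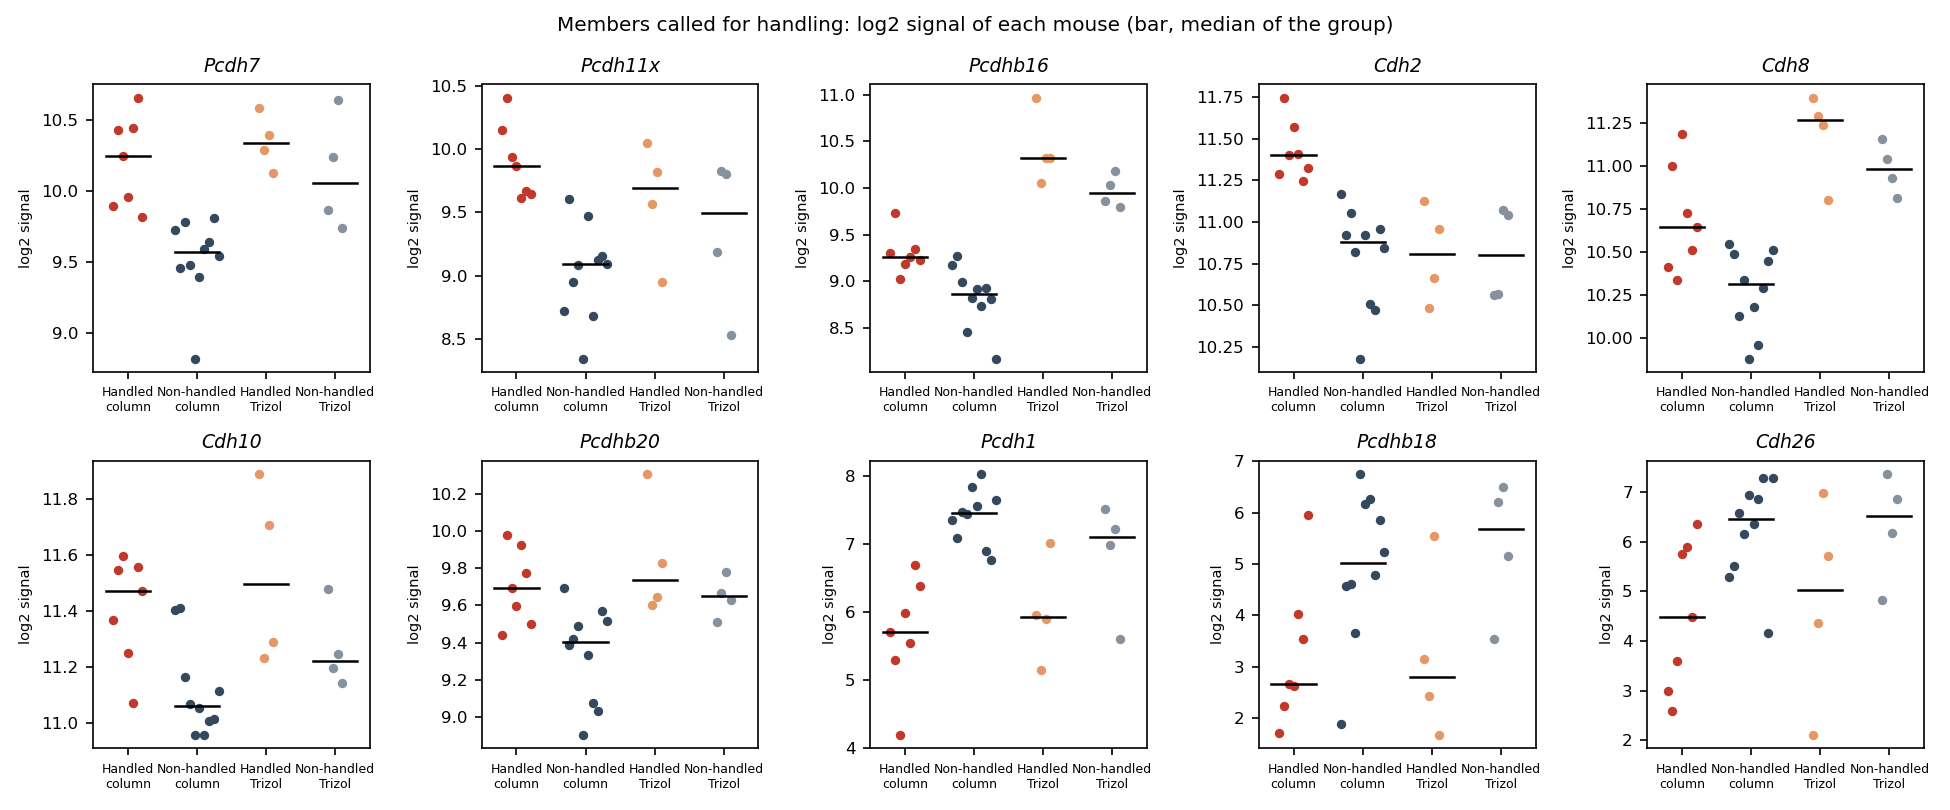
Log2 signal of each mouse (points) with the median of its group (bar) for the 10 called members, in handled and non-handled column mice (7 and 10) and handled and non-handled Trizol mice (4 and 4), each panel on its own log2 axis. Handled column mice lie wholly above non-handled column mice for Pcdh7, Pcdh11x and Cdh2 and wholly below them for Pcdh1, while every pair of Trizol groups overlaps.

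Members next to the threshold were Pcdh17 (difference 0.31 ± 0.11, limma adjusted p = 0.0541), Cdh11 (0.25 ± 0.09, adjusted p = 0.0672) and Pcdhb7 (0.31 ± 0.12, adjusted p = 0.0702). Pcdh17, a delta2 protocadherin of presynaptic sites, was 10.92 to 11.43 (median 11.19) in handled and 10.55 to 10.92 (median 10.63) in non-handled column mice, where it was called in the fit of column mice alone (0.47 ± 0.09, adjusted p = 0.00111), and its Trizol difference was -0.02 ± 0.23. The delta2 genes Pcdh8, Pcdh10, Pcdh18 and Pcdh19, of which PCDH19 is the gene of an inherited epilepsy, were not called by their leading probe sets. By class, the median difference was 0.13 for classical cadherins (9 of 15 above 0), 0.09 for other protocadherins (8 of 12), -0.03 for clustered protocadherins (11 of 23) and -0.37 for other cadherins (0 of 5), beside -0.12 over all leading probe sets. The other cadherins had a median mean log2 signal of 5.54, within the lower 50%, where the median difference of all leading probe sets was -0.49. After scaling to the same mean and variance the median of clustered protocadherins was 0.24, so its direction followed the scaling, and that of other cadherins was -0.06.

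Of the 5 called members that lie outside the chromosome of the protocadherin clusters, 4 matched an entry in the RefSeq table of gene starts (GRCm38.p6), and 30 bases of the 3 that rose are printed to compare the surroundings of genes that moved the same way. The capitals mark a GC box (GGGCGG) in Cdh8, at chr8:99416534-99416563 on the minus strand. The Pcdh7 and Cdh10 stretches are the last 30 bases before the start, at chr5:57718051-57718080 and chr15:18820299-18820328 on the plus strand.
Cdh8: aaggcagggaggGGGCGGggtgggggactg
Pcdh7: atctcctccctgaatcgcgcacagcgctgc
Cdh10: tcttttaaaacgtagttacaagagcttcac
Over the 250 bases before the start, the share of G and C was 64.4% for Cdh8, 58.4% for Pcdh7 and 36.8% for Cdh10, beside a median of 52.4% over 32851 such windows. Both strands of the 250 bases were searched for 5 motifs, none of which holds another. The GC box (GGGCGG) is held by 32.7% of all windows and the TATA box (TATAAA) by 12.4%. The E-box (CACGTG) is held by 6.02%, the cyclic AMP response element (TGACGTCA) by 1.55% and the glucocorticoid response element (AGAACA, any 3 bases, then TGTTCT) by 0.00913%. The GC box of Cdh8 was the only match in the windows of Cdh8, Pcdh7, Cdh10 and Cdh26, and it is a description of these letters alone.

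Whether the handling difference depended on extraction was tested with an interaction term in limma. It called 0 of the 55 members, where 0.077% of all leading probe sets were called. At an unadjusted p under 0.05 there were 5 members (Cdh2, Pcdh8, Pcdh12, Pcdh17 and Pcdhb3), and 7.87% of all leading probe sets. For Cdh2, Pcdh17, Pcdh8 and Pcdhb3 the column difference was the more positive one, and for Pcdh12, a dim gene of vessels, column and Trizol differences were 0.45 ± 0.66 and -2.23 ± 0.91.

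In column mice alone limma called 10 members, 8 higher and 2 lower, beside 5.5% and 9.31% of all leading probe sets. They were 9 of the members called in all mice, without Pcdhb18, and Pcdh17. In Trizol mice alone limma called 0 members and 0 of all leading probe sets. There 5 members had an unadjusted p under 0.05 (Cdh1, Cdh22, Pcdhb16, Pcdhb18 and Pcdh12), beside 6.56% of all leading probe sets. Of the 10 members called in all mice, 9 had the same sign in Trizol mice, the exception being Cdh2, and in 9 the column difference was the larger in size, the exception being Pcdhb18. In column mice the handled group lay wholly above in 3 members and wholly below in 1, which happened in 0.599% and 1.65% of all leading probe sets. In Trizol mice it lay wholly above in 2 members, Pcdhb7 and Pcdhb17, beside 0.83% of all leading probe sets, and neither was called in all mice.

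**Figure D3:**
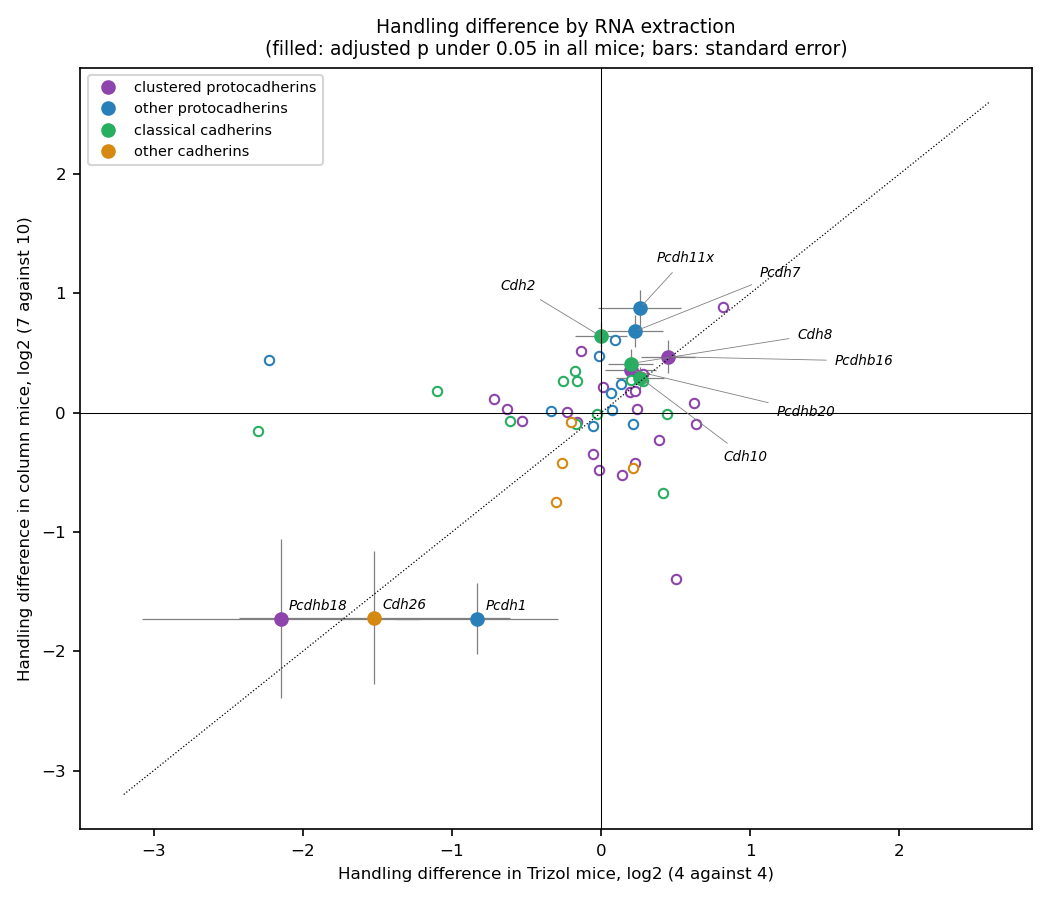
Handling difference (log2) of each member in column mice (7 against 10, vertical axis) and in Trizol mice (4 against 4, horizontal axis), with a dotted line of equality. Filled points were called in all mice and carry their standard errors. The called members above 0 lie above the line or on it, with Cdh2 at -0.0025 on the Trizol axis.

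Other probe sets of the same gene bore on several of these values. The 55 genes had 44 further probe sets, of which 28 lay above the highest Y-linked probe set. Handling called 3 of the 44, beside 11.5% of all probe sets. The second probe set of Cdh2 gave 0.31 ± 0.11 (limma adjusted p = 0.0584), that of Pcdh11x gave 0.52 ± 0.19 (adjusted p = 0.0772) and that of Pcdh17 gave 0.24 ± 0.08 (adjusted p = 0.0589), all in the direction of the leading one. Second probe sets of Pcdh10 (0.34 ± 0.10, adjusted p = 0.0212) and Pcdh9 (0.19 ± 0.06, adjusted p = 0.0344) were called higher although the leading ones were not. The dimmest of the 4 probe sets of Cdh10 went the other way and was called lower, at -1.26 ± 0.35 (adjusted p = 0.0180), while its second gave 0.01 ± 0.14. The mean over the probe sets of Cdh10 therefore had a difference of -0.17. The further probe sets of Pcdh7 lay within the range of the gauge and gave -0.55 ± 0.43 and -0.0015 ± 0.45.

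**Figure D4:**
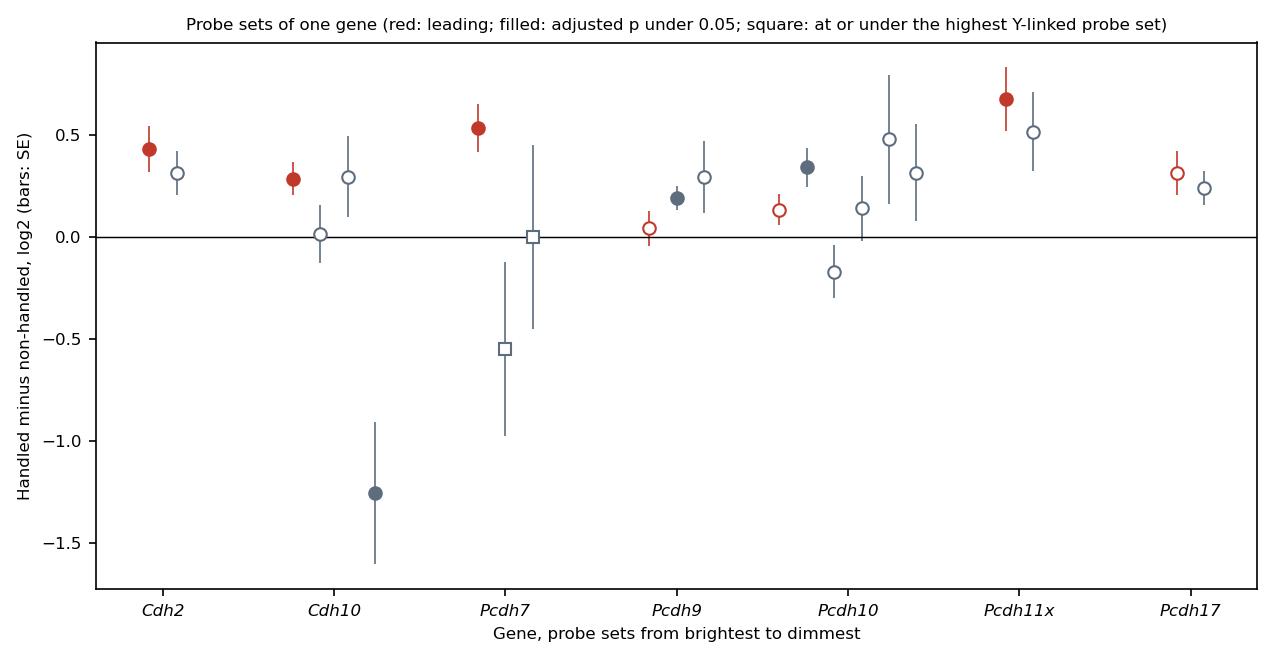
Handling difference (log2, with its standard error) of every probe set of 7 genes, ordered from the brightest to the dimmest within a gene, the leading one in red, filled where the adjusted p was under 0.05 and square where the mean signal was at or under 5.24. The probe sets of Cdh2, Pcdh11x and Pcdh17 lie on 1 side of 0, and the dimmest of Cdh10 lies at -1.26.

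Extraction was compared in the same fit as column minus Trizol mice. It called 23 of the 55 members, 8 higher and 15 lower with columns, where 41.2% of all leading probe sets were called, 23.7% higher and 17.5% lower. Of the 35 members in the upper 50% of signal, 7 were higher and 13 lower, beside 36% and 22.5% of all leading probe sets there. Of the 20 in the lower 50%, 1 was higher and 2 lower, beside 2.52% and 8.86%. The split of the 55 members depended on the scaling. It was 11 higher and 11 lower after quantile normalization and 11 and 9 after scaling to the same mean and variance. That of all probe sets moved too, from 7430 higher and 10500 lower to 10763 and 8093 after quantile normalization. After scaling to the same mean and variance it was 10769 and 7873. Adding the 3′ to 5′ ratios of Gapdh and Actb to the fit left 14 called. The mean Gapdh log2 ratio was 1.32 and 1.26 in handled and non-handled column mice and 1.76 and 1.67 in handled and non-handled Trizol mice, and its part in these differences was not tested beyond that fit.

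Genes of the beta cluster went opposite ways with extraction. Pcdhb16 was 8.17 to 9.73 (median 9.03) in 17 column mice and 9.80 to 10.97 (median 10.12) in 8 Trizol mice, and the groups did not overlap. Its difference was -1.13 ± 0.12 (SE, limma adjusted p = 1.16e-09). Pcdhb9 was 10.62 to 11.24 (median 11.0035) in column and 9.65 to 10.78 (median 10.18) in Trizol mice, with a difference of 0.84 ± 0.10. Pcdhb10, Pcdhb12 and Pcdhb19 were called higher with columns as well, by 0.56 to 0.76, and Pcdhb3, Pcdhb7, Pcdhb17 and Pcdhb21 lower, by values from -1.10 to -0.42. Pcdhgc4, the gamma gene that supports survival of interneurons, was 2.26 to 5.76 (median 3.30) in column and 4.66 to 7.32 (median 6.16) in Trizol mice, a difference of -2.54 ± 0.47, and its column values lay largely within the range of the Y-linked gauge. The call of Pcdhb16 was lost over the mean of its probe sets (-0.50, adjusted p = 0.0548), and that of Pcdhb10 in 6 of the 25 fits that left out 1 mouse.

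Among the other protocadherins, Pcdh8, also called arcadlin and induced by neuronal activity, was 13.02 to 13.49 (median 13.29) in column and 12.07 to 12.82 (median 12.34) in Trizol mice, a difference of 0.85 ± 0.09 without overlap. Pcdh9 was the reverse, at 11.04 to 11.97 (median 11.55) in column and 12.29 to 12.80 (median 12.64) in Trizol mice, a difference of -1.03 ± 0.09 without overlap. Pcdh15, a protein of hair-cell tip links, gave -1.61 ± 0.36, Pcdh7 -0.38 ± 0.13 and Pcdh10 -0.33 ± 0.08. The second probe set of Pcdh10 was called in the opposite direction (0.47), and the mean over its 6 probe sets gave 0.0036. Over the mean of its probe sets Pcdh7 was not called for extraction (-0.16, adjusted p = 0.624).

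Of the classical cadherins, Cdh22 was called higher with columns, at 8.28 to 9.33 (median 8.95) against 6.96 to 8.34 (median 7.90) in Trizol mice, a difference of 0.98 ± 0.15. The type II genes Cdh6, Cdh7, Cdh8 and Cdh9 were called lower, by values from -0.74 to -0.45, and no type I gene was called. The call of Cdh7 was lost in 17 of the 25 fits that left out 1 mouse, and its difference was -0.01 after quantile normalization (adjusted p = 0.965). Cdh6 was not called after quantile normalization (-0.35, adjusted p = 0.171) or over the mean of its probe sets (-0.35, adjusted p = 0.368). Cdh9, a cadherin of the synapses between mossy fibres and CA3, was 6.86 to 8.53 in column and 8.19 to 8.96 in Trizol mice. The leading probe set of Cdh10 gave -0.14 ± 0.09 and was not called, whereas its second gave -2.53. Cdh13, the cadherin anchored by a lipid, was called higher (0.66 ± 0.12), as was Cdh23 (1.25 ± 0.41), the partner of Pcdh15 in tip links, and Cdh16 was called lower (-1.29 ± 0.47). Cdh23 lost its call without H126 or NH138 and over the mean of its probe sets (0.74, adjusted p = 0.0794), and Cdh16 without H126, NH138 or NH147 and after quantile normalization (-0.80, adjusted p = 0.183). The main extraction difference was larger in size in Pcdhb16, Pcdh8 and Pcdh9 than the handling difference of any of the 7 members that rose. It was smaller than that of the called members that fell with handling, Pcdh1 (-1.43), Cdh26 (-1.65) and Pcdhb18 (-1.86). Under alternative fits the extraction differences shrank to as little as -0.50 for Pcdhb16, 0.64 for Pcdh8 and -0.48 for Pcdh9.

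**Figure D5:**
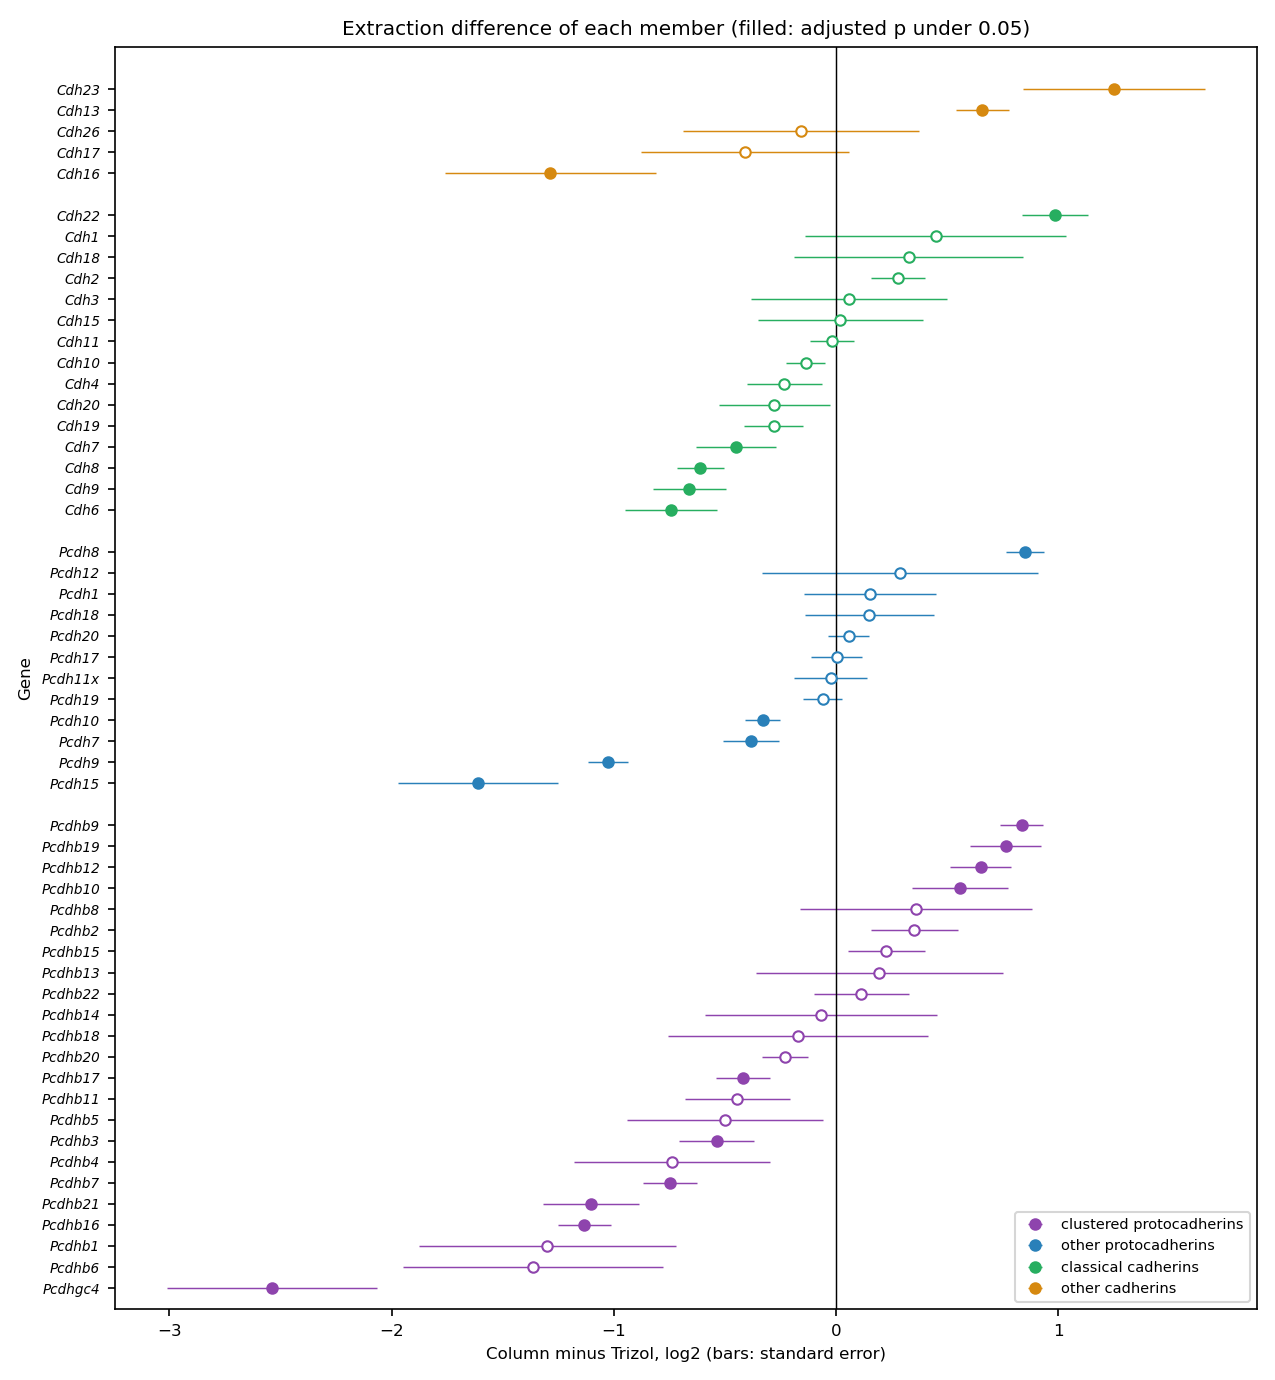
Extraction difference (column minus Trizol, log2, with its standard error) of each member, grouped and coloured by class and ordered within it, filled where the adjusted p was under 0.05. Every class holds called members on both sides of 0, from Pcdhgc4 at -2.54 to Cdh23 at 1.25.

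Of 32 listed partner genes, 28 were measured, and handling called 4 higher and 2 lower, beside 4.47% and 9.7% of all leading probe sets. Jup, or plakoglobin, a catenin that binds classical and desmosomal cadherins, was 3.94 to 7.04 (median 6.03) in handled and 6.57 to 8.45 (median 7.25) in non-handled mice, and fell by 1.55 on the log2 scale (SE 0.30, limma adjusted p = 0.000895). Arvcf, of the p120 catenin family, fell by 0.53 (adjusted p = 0.0154). The other 12 measured catenins and adaptors, Ctnnb1, Ctnna1, Ctnna2, Ctnnd1 and Ctnnd2 among them, were not called. Abi2 and Abi1, parts of the WAVE complex that delta protocadherins recruit to actin, rose by 0.42 ± 0.09 and 0.25 ± 0.07. Abi2 was 13.37 to 13.90 (median 13.58) in handled and 12.64 to 13.52 (median 13.18) in non-handled mice. Among the regulators of the clustered loci, Rad21 of cohesin and Smchd1, a silencer of clustered protocadherins, rose by 0.29 ± 0.09 and 0.47 ± 0.14, while Ctcf, which sets the promoter choice, did not pass the test. Rad21, like Cdh2, was higher in column mice (0.44) and not in Trizol mice (-0.01). Of the 6 called partners, Arvcf, Abi1, Abi2 and Rad21 lost the call after scaling to the same mean and variance, and Jup and Smchd1 kept it. Without the extraction term Abi1, Rad21 and Smchd1 were not called, and without the trend in limma Rad21 and Smchd1 were not. Over the mean of its probe sets Smchd1 had a difference of 0.12 and was not called (adjusted p = 0.561), and its call was also lost without handled mouse H109. Abi1, Abi2 and Arvcf likewise lost the call over the mean of their probe sets. The call of Rad21 was lost without handled mouse H108, H109, H110 or H123. Extraction called 8 of the 28 partners higher and 7 lower with columns, beside 23.7% and 17.5% of all leading probe sets.

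Of 56 marker genes of 11 cell types, 12 were called for handling, 5 higher and 7 lower, beside 4.47% and 9.7% of all leading probe sets. Those that rose were Gad2 and Gad1 of interneurons (0.86 and 0.30), Aqp4 of astrocytes (0.32), Pdgfra of oligodendrocyte precursors (0.30) and P2ry12 of microglia (0.24). Those that fell were Pvalb of interneurons (-0.32), Camk2a of CA1 pyramidal cells (-0.24), Rgs14 of CA2 (-0.29), Cldn5 of endothelium (-0.49), Igf2 of meninges (-0.89) and Folr1 and Clic6 of choroid plexus (-0.86 and -0.63). The median difference was -0.07 over 6 interneuron genes and 0.02 over 5 meningeal genes. The choroid plexus list, 4 of whose 5 genes lay above the gauge, had a summed signal, on the log2 scale, of 8.69 to 9.18 in handled and 8.93 to 9.88 in non-handled column mice, and of 8.82 to 8.92 in handled and 9.28 to 11.66 in non-handled Trizol mice, or 9.28 to 9.61 without NH147, in which Ttr stood at 11.45. Extraction called 32 of the 56 marker genes, beside 41.2% of all leading probe sets. Called higher with columns were 5 of 5 astrocyte, 4 of 4 oligodendrocyte, 4 of 5 microglia and 6 of 7 CA1 pyramidal genes. So were 3 of 5 endothelial and mural, 3 of 5 meningeal, 3 of 6 interneuron and 2 of 7 CA3 and CA2 genes. Of oligodendrocyte precursor genes 1 of 2 was higher, and of choroid plexus and dentate granule genes 0 of 5 each, with 1 dentate gene lower. Over all leading probe sets 23.7% were called higher, and 36% of those in the upper 50% of signal. The summed microglia signal was 13.91 to 14.68 in column and 12.80 to 13.38 in Trizol mice. The part of these cell types in the members' differences was not tested.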

How the data were processed

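RNA of CA1 from 25 mice was measured on 1 array each. Intensity values, deposited by the authors on a linear scale, came from the MAS 5.0 algorithm of Affymetrix Expression Console, and no normalization of their distribution was applied. MAS 5.0 subtracts background, so dim probe sets vary widely on the log2 scale. Precision rests on the number of mice and, for handling, on the number of litters. No column was left out and no arrays were identical. Extraction was read from the labels, which name sample positions. These were taken to be the order of the samples in the series, and each mouse's extraction rests on that reading. Probe sets were named from the platform annotation (34958 with 1 gene, 932 with several, 9211 with none here), with symbols updated through RefSeq, and all 55 members matched.

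Log2 intensity of 45037 probe sets, without 64 control probe sets, was fitted with limma 3.58.1 in R 4.3.3 (trend, no further normalization, no filter). Exact permutations and figures used Python 3.11.15. Scripts were tested on simulated data. The text names members that were called for handling, the leading ones for extraction in each class, those with the smallest p or brightest signal in each class, a list of neuronal cadherins, and called partners. Members and lists were chosen with earlier results of these data known. Alternatives were other normalizations, an offset of 32, a filter on dim probe sets, array weights, no trend, covariates of RNA quality, single extractions, other probe sets and each mouse left out.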

Additional observations from a re-analysis of the deposited data

Results flagged for a closer look

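In 152 groups of mice examined, Dixon's test at 95% set 1 mouse apart in 11 (7.24%), where chance gives about 1 in 20. Non-handled mouse NH162 was the low column mouse in Pcdh7 (8.82, others 9.40 to 9.81) and Pcdhb21 (5.66, others 7.23 to 8.28). The other low column mice were handled mouse H110 in Cdh23 (4.46, others 6.24 to 6.66), handled mouse H123 in Pcdhb3 (9.26, others 9.66 to 9.95) and non-handled mouse NH166 in Pcdhb19 (7.25, others 7.88 to 8.40). Among handled Trizol mice, mouse H126 was low in Cdh23 (2.21) and Pcdh17 (10.38, others 11.03 to 11.09), and mouse H113 was high in Cdh9 (8.91) and low in Pcdh9 (12.29). Among non-handled Trizol mice, mouse NH144 was low in Pcdh8 (12.08, others 12.72 to 12.82) and mouse NH147 low in Abi2 (13.16, others 13.47 to 13.52).

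The alpha cluster was measured by 6 probe sets that name several genes each and so are no members. Their mean log2 signal was 11.23, 9.93 and 9.38 for the 3 that name 14 genes, and 7.11, 6.71 and 6.19 for the 3 that name 9 genes, all above the highest Y-linked probe set at 5.24. None was called for handling, with differences of 0.22 ± 0.11 for the brightest and 0.23 ± 0.11 for the next.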

How the results depend on the processing

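No paired analysis was possible because the groups share no replicate numbers. Handling called 10 members, and 6 (5 higher, 1 lower) after quantile normalization, 4 (2 higher, 2 lower) without the extraction term and 0 in Trizol mice alone, where 0 of all leading probe sets were called; it called 7 to 13 when 1 mouse was left out, the lowest without handled mouse H109 and the highest without non-handled mouse NH142. Extraction called 23 members, and 14 with RNA quality covariates and 21 to 25 when 1 mouse was left out. Of all 99 probe sets of the members it called 37, beside 39.8% of all probe sets of the array. Interaction called 0 members under every alternative run. Directions turned for Cdh10 (-0.17) and Pcdh7 (-0.00621) under handling and Pcdh10 (0.0036) under extraction with the mean over probe sets, and for Cdh2 (-0.00248) and Rad21 (-0.0148) in Trizol mice alone. The handling calls of Cdh2, Cdh8, Cdh10, Cdh26, Pcdhb16 and Pcdhb20 were lost without the extraction term, those of Cdh10, Cdh26, Pcdhb18 and Pcdhb20 after quantile normalization, those of Cdh8, Cdh26 and Pcdhb18 with RNA quality covariates, those of Cdh8, Cdh10 and Pcdhb20 without the trend, and those of Cdh8 and Pcdhb16 with the mean over probe sets. The extraction calls of Cdh6, Cdh7, Cdh8, Cdh16, Cdh23, Pcdh10, Pcdhb10, Pcdhb19 and Pcdhgc4 were lost with RNA quality covariates, those of Cdh6, Cdh7, Cdh9 and Cdh16 after quantile normalization, those of Cdh6, Cdh7, Cdh16, Pcdh7 and Pcdhb3 after scaling to equal mean and variance, and that of Pcdh7 without NH146. The cause of these changes was not tested. Pcdh1 and Pcdh11x were called in every fit across all mice, with -1.58 to -1.03 and 0.60 to 0.76. Under quantile normalization the median extraction difference of classical cadherins went from -0.14 to 0.11 and that of other cadherins from -0.16 to 0.31. Trizol groups of 4 mice and probe sets near the Y-linked gauge limit what could be called.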
